A study of Mus musculus with 8 samples.

Results

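The CCN genes Ccn1 to Ccn5 and the YAP target genes Ankrd1, Amotl2, Ajuba, Axl and Crim1 were followed in mouse liver myofibroblasts in which O-GlcNAc transferase (OGT) was inhibited. These 10 genes, of 40840 in the expression tables, were taken by name and not by a cut on their values. Earlier results of these data were known when they were chosen. All 10 passed the filter of at least 10 counts in total. The cells were primary myofibroblastic hepatic stellate cells (pMF-HSCs), which were isolated from livers of male C57BL/6J mice aged 15 to 18 weeks, sorted, and left to activate on plastic for 7 days in medium with serum. The control group received the vehicle DMSO (n = 4) and the OGTi group received OSMI-1, an OGT inhibitor, for 24 h at a dose of 50 µM (n = 4). Each replicate number stood for 1 independent experiment, so that control and OGTi libraries of the same number formed a pair. OGT adds the sugar O-GlcNAc to nuclear and cytosolic proteins. The data hold 1 compound at 1 dose, and pMF-HSCs with lowered OGT expression were not analysed here.

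YAP and its relative TAZ are transcriptional coactivators that do not bind DNA themselves and act on chromatin mainly through TEAD factors. The Hippo kinases MST and LATS phosphorylate YAP and TAZ and keep them out of the nucleus, whereas stiff surfaces and cell spreading favour their nuclear entry. CCN proteins are secreted matricellular proteins built from modules that bind integrins, proteoglycans and growth factors. CCN1 (also named CYR61) and CCN2 (also named CTGF) are the usual reporters of YAP activity, and CCN2 is a long-known profibrotic factor of stellate cells. TEAD factors recognise DNA through the core CATTCC.

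To show what these genes share in sequence, the promoters in the RefSeq table of mouse promoters (GRCm38.p6 assembly) were searched for this core on both strands. Each promoter window ran from 250 bases before the start site to 50 after it. The table held Ccn1, Ankrd1, Amotl2, Ajuba, Axl and Crim1. It did not hold Ccn2, Ccn3, Ccn4 and Ccn5. All 6 promoters held the core (CATTCC, or GGAATG on the opposite strand), against 14.7% of the 32851 promoters in the table. Ankrd1 and Ajuba each held 2 copies, against 447 of the 32851 promoters with 2 or more. The 8 stretches are shown because every member in the table holds at least 1, each read so that the core runs as CATTCC, with the core in capitals.
Ccn1: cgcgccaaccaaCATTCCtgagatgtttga
Ankrd1, distal: atgtgagagggtCATTCCtttggcagtgac
Ankrd1, proximal: caggtgaattttCATTCCagacttagtgtc
Amotl2: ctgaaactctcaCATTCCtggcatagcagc
Ajuba, distal: cgttgatggataCATTCCacagtgcccctc
Ajuba, proximal: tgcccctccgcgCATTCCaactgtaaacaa
Axl: gggtctggtaaaCATTCCtgtagaatttcc
Crim1: cccatcctacctCATTCCcccccccgccct

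These stretches were located in GRCm39, the build of the expression tables, by an exact match of each promoter window. The Ccn1 stretch lies at chr3:145355826-145355855 (minus strand), with its core from position -103 to -98 relative to the RefSeq start site. The Ankrd1 stretches lie at chr19:36097437-36097466 and chr19:36097350-36097379 (plus strand), with cores starting at -210 and -123. The Amotl2 stretch lies at chr9:102594926-102594955 (plus strand, core from -65). The Ajuba stretches lie at chr14:54815287-54815316 and chr14:54815265-54815294 (minus strand, cores from -186 and -164). The Axl stretch lies at chr7:25488374-25488403 (plus strand, core from -233) and that of Crim1 at chr17:78507586-78507615 (minus strand, core from -79). In the GENCODE annotation, 4 of the 8 stretches overlap no exon of these genes, namely those of Ccn1, Ajuba and Axl. The stretches of Ankrd1, Amotl2 and Crim1 overlap an annotated 5′ untranslated region of a longer transcript.

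Ccn1 was the 1 gene of the 6 whose window held the letters TATAAA, the common form of the TATA box (searched on both strands and held by 13.6% of promoters). Variant forms of the box were not searched, and the Ankrd1 window holds the letters TATATAA, which this search did not count. A link between these letters and the direction of change was not tested. The upstream window of Ccn1 at chr3:145355741-145355990 (GRCm39, minus strand) is shown whole, because Ccn1 was the member that rose after OGTi. The TEAD core and TATAAA are in capitals.
Ccn1 upstream: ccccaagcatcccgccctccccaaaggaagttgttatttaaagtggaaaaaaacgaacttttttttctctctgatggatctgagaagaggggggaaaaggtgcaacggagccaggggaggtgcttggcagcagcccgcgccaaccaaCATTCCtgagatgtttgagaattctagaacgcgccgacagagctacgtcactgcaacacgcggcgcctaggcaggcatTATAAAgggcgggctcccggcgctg

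The AP-1 motif TGANTCA was found in 0 of the 6 windows and in 7.81% of all promoters, and the CArG box, the site of SRF, in 0 of 6 and 1.63%. Searching both strands, no motif overlapped another in these windows. A match is a string of letters and not a measured binding site.

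**Figure D1:**
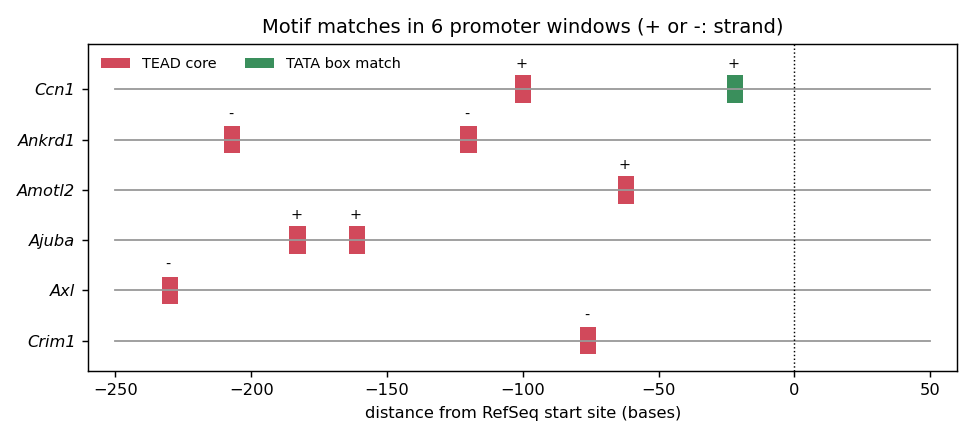
Position of motif matches in the 6 promoter windows found in the table, in bases from the RefSeq start site (dotted line at 0). Red boxes mark the TEAD core, the green box the TATA box match, and + or - the strand relative to the gene. The TEAD core lay upstream of the start site in every window, from position -233 in Axl to -65 in Amotl2.

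The libraries held 30068876 to 37372420 expected counts, which leaves little counting error for 9 of the 10 genes. The 10 most counted genes took 6.73% to 7.76% of counts in control and 10.9% to 15.8% in OGTi. The part of this shift in the results below was not tested. OGTi replicate 4 held a count for 23746 genes and the other libraries for 19035 to 20293. Of 10 stellate markers, none was at 0, and 2 of them, Pdgfrb and Lrat, fell. Their summed level was 3676 to 7213 CPM (counts scaled to a common library size) in control and 4167 to 6513 in OGTi. Among OGTi libraries, replicate 1 was lowest for Col1a1 (270 CPM, the others 1661 to 2474) and Col1a2 (33.8 CPM, the others 126 to 400). It was highest for Acta2 (2866 CPM) and Vim (942 CPM). All 8 hepatocyte markers were below 1 CPM in every library, with Hnf4a at 0, and the 6 mesothelial markers summed to at most 2.22 CPM in control and 2.6 in OGTi. The 8 endothelial markers summed to 10.1 to 32.8 CPM in control and at most 23.3 in OGTi, with 2 of them lower. The 8 macrophage markers summed to 40.8 to 106 CPM in control and 65.1 to 161 in OGTi, with Cd68 higher and Cd14 lower. The 6 cholangiocyte markers summed to 201 to 436 CPM in control and 128 to 516 in OGTi, with Sox9 higher and Krt19 lower. Of these 6, Epcam alone was below 1 CPM in every library, while Krt19 was at 30.9 to 77.9 CPM and Spp1 at 73.5 to 433 CPM. Their part in the results was not tested. In such bulk libraries, fewer cells of a type and less RNA per cell cannot be told apart.

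OGTi changed 4 of the 10 genes in opposite directions. Ccn1 rose 2.62-fold, while Ankrd1, Amotl2 and Axl fell, Ankrd1 by 2.51-fold. The other 6, Ccn2 among them, did not pass the test. Over all 19963 genes tested, 18.4% were called (edgeR quasi-likelihood test, Benjamini-Hochberg adjusted p of at most 0.05 over all genes), 8.13% as higher and 10.2% as lower. The members' median log2 fold change was -0.36, beside 0.01 over all genes. It was -0.044 without replicate 3, -0.16 with each library's trend on gene length removed and -0.66 in limma on TPM. Higher calls were 1 of 5 in the CCN family and 0 of 5 among the other targets. Lower calls were 0 of 5 and 3 of 5. The 3 lower calls became 1, that of Ankrd1, without the replicate block, without replicate 1 or without replicate 3. For these counts of 0, no gene had an unadjusted p under 0.05, DESeq2 called none, and limma on TPM called 1 CCN gene, Ccn4, as lower.

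**Figure D2:**
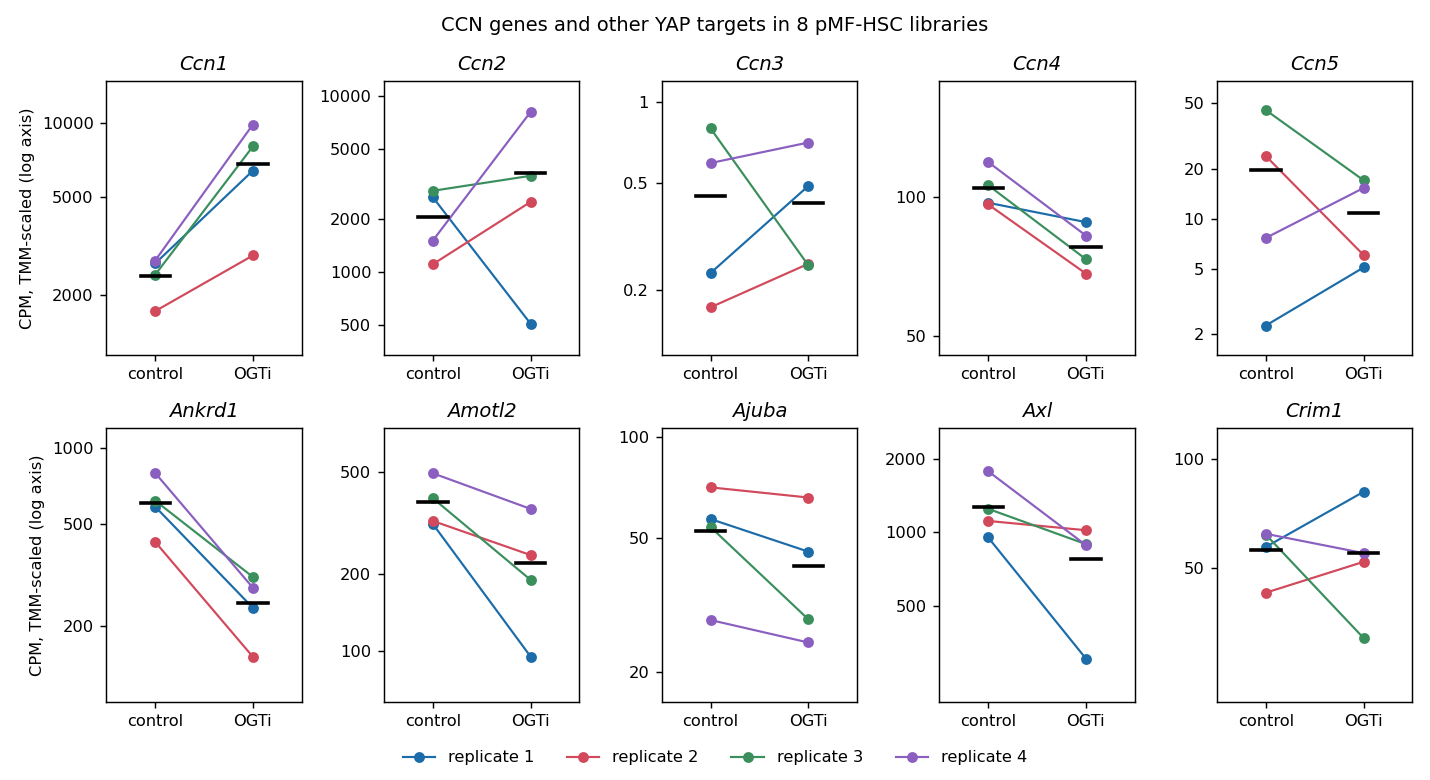
CPM with TMM scaling (log axis) of each of the 10 genes in 4 control and 4 OGTi libraries. Points of one colour joined by a line are a pair, and black bars are group means (n = 4). The lines of Ccn1 rise in 4 of 4 pairs, those of Ankrd1, Amotl2, Ajuba, Axl and Ccn4 fall in 4 of 4, and those of Ccn2 run both ways.

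Ccn1, a secreted integrin ligand that acts in adhesion, migration and senescence, lies on chromosome 3 (145352720 to 145355738, minus strand). Control replicates 1 to 4 held 2690.4, 1724, 2422 and 2764 CPM of Ccn1. OGTi replicates 1 to 4 held 6394, 2899, 8016 and 9833 CPM. All OGTi libraries lay above all control libraries, which was so for 11.5% of the genes tested, although OGTi replicate 2 exceeded the highest control library only slightly. The log2 fold change was 1.39 ± 0.21 (SE, 95% interval 0.93 to 1.85, edgeR adjusted p = 0.00185), with values of 1.25, 0.75, 1.73 and 1.83 in pairs 1 to 4. Ccn1 was already the 21st most abundant gene in control by CPM.

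Ccn2, which promotes matrix production together with TGF-beta, lies on chromosome 10 (24471333 to 24474900, plus strand). Control replicates 1 to 4 held 2662, 1105, 2897 and 1508 CPM of Ccn2. OGTi replicates 1 to 4 held 506, 2504, 3527 and 8159.7 CPM. The lowest and the highest of the 8 libraries were both OGTi libraries, and the groups overlapped. The pairs gave log2 ratios of -2.39, 1.18, 0.28 and 2.44, of which 3 were positive. The fitted log2 fold change of 0.48 ± 0.64 (SE, 95% interval -0.93 to 1.89) had an edgeR adjusted p of 0.662, and the interval holds both a clear rise and a clear fall. Without replicate 1 the log2 fold change was 1.30 (adjusted p = 0.0506) and without replicate 4 it was -0.22 (adjusted p = 0.855).

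The spread of Ccn2 among OGTi cultures was wide, and its range depended mostly on OGTi replicate 1. The SD of its log2 CPM was 1.68 in OGTi and 0.67 in control, which were at or above those of 99.6% and 89.8% of the 8148 genes with a mean of at least 10 CPM. The highest OGTi library held 16.1 times the Ccn2 level of the lowest, against 2.62 times in control. Without replicate 1 these ranges were 3.26 and 2.62 times and the SDs 0.88 and 0.71 (at or above 97.0% and 88.6% of genes), and without replicate 4 the OGTi range was 6.97 times, both alternatives chosen after seeing the data. For Ccn1 these ranges were 3.39 times in OGTi and 1.60 times in control. A test of the difference in spread was not run.

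Since Ccn1 and Ccn2 are often read as equal reporters, their ratio was followed within each library, where scaling cancels. The log2 ratio of Ccn1 to Ccn2 counts was 0.02, 0.64, -0.26 and 0.87 in control replicates 1 to 4. In OGTi replicates 1 to 4 it was 3.66, 0.21, 1.18 and 0.27. OGTi replicate 1 stood highest, and in 2 of 4 pairs the ratio was lower in OGTi than in control. The mean within-pair difference was 1.01 ± 1.98 (SD, n = 4 pairs), with an exact two-sided sign-flip permutation p of 0.5, where 0.125 is the smallest p that 4 pairs allow, so that this test could not pass 0.05. Without replicate 1 the mean difference was 0.14.

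The likeness of profiles was described by the root mean square difference of log2 CPM, each gene centred on its mean over the 8 libraries, among the same 8148 genes. The genes most like Ccn1 were Dusp5 (0.178), Gadd45g (0.211) and Mustn1 (0.220). The genes most like Ccn2 were Phka2 (0.478), Serinc3 (0.479) and Zdhhc5 (0.490). The difference between Ccn1 and Ccn2 themselves was 1.16, which placed Ccn2 5874th in likeness to Ccn1, past the median of all genes at 0.98. This measure depends on the size of changes as well as on their direction, and it was not run without replicate 1. Both genes were higher in OGTi in pairs 2, 3 and 4. Their log2 ratios in pair 1 were 1.25 for Ccn1 and -2.39 for Ccn2.

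Ccn4 (also named WISP1), a secreted Wnt-responsive CCN protein, lies on chromosome 15 (66763060 to 66795050, plus strand). Control replicates 1 to 4 held 97.2, 96.4, 106 and 119 CPM of Ccn4. OGTi replicates 1 to 4 held 88.2, 68.2, 73.3 and 82.5 CPM. All OGTi libraries lay below all control libraries, which was so for 12% of the genes tested, and the ranges within each group were narrow. A log2 fold change of -0.43 ± 0.19 (SE, 95% interval -0.86 to 0.01) did not pass (edgeR adjusted p = 0.163). In limma on log2(TPM + 1) it was -0.73 (adjusted p = 0.0185).

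Ccn5 (also named WISP2) lacks the C-terminal cystine knot of its relatives and lies on chromosome 2 (163662753 to 163675066, plus strand). Control replicates 1 to 4 held 2.26, 24.0, 45.6 and 7.68 CPM of Ccn5. OGTi replicates 1 to 4 held 5.08, 6.05, 17.1 and 15.4 CPM. The control cultures differed 20.1-fold among themselves, and the OGTi values fell within their range. Its log2 fold change was -0.33 ± 0.53 (SE, 95% interval -1.51 to 0.86, edgeR adjusted p = 0.733), with 2 pairs up and 2 down.

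Ccn3 (also named NOV), which can oppose CCN2, lies on chromosome 15 (54609012 to 54620154, plus strand) and was near the limit of detection. Control replicates 1 to 4 held 9, 7, 31 and 22 counts of Ccn3. OGTi replicates 1 to 4 held 17, 8, 8 and 22 counts. The gene held 124 counts in all, and the control cultures differed 4.64-fold among themselves. Ccn3 did not pass (log2 fold change 0.04 ± 0.62, SE, 95% interval -1.33 to 1.42, edgeR adjusted p = 0.972).

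To compare the family members with each other, levels were taken in TPM, which is scaled by transcript length. The summed CCN level was 4704, 2584, 4869 and 3954 TPM in control replicates 1 to 4. It was 4525, 4440.1, 8389 and 13177 TPM in OGTi replicates 1 to 4. The sums overlapped between groups, with OGTi replicates 3 and 4 above all control libraries. The means were 4028 ± 1041 TPM in control and 7633 ± 4130 TPM in OGTi (SD, n = 4), and the mean within-pair log2 ratio was 0.81 ± 0.73 (SD, n = 4 pairs). Ccn1 and Ccn2 together made up nearly the whole sum. Ccn1 alone gave 49.2% to 68.0% of it in control and 57.9% to 93.3% in OGTi, and Ccn3, Ccn4 and Ccn5 together gave 0.811% to 2.56% in control and 0.316% to 0.678% in OGTi. As shares of one sum, these values move with Ccn1 and Ccn2.

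**Figure D3:**
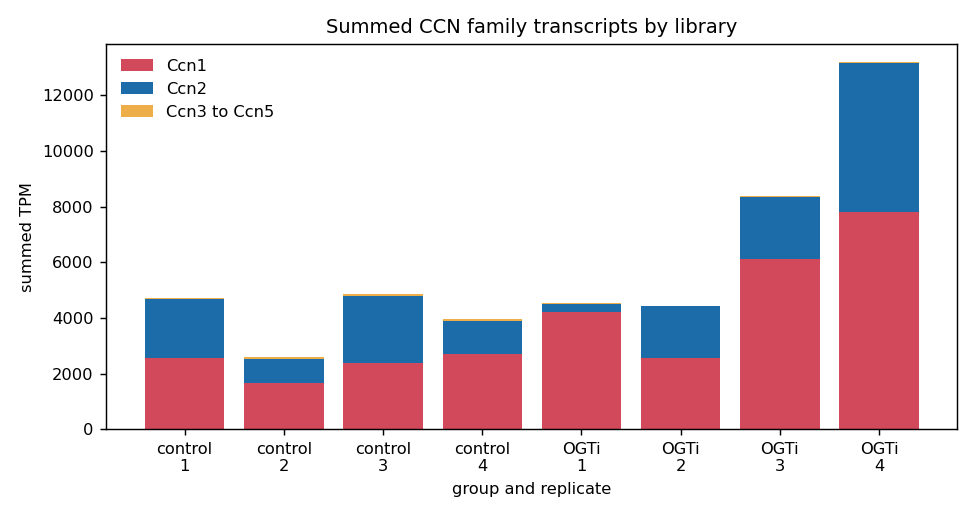
Summed TPM of the 5 CCN genes in each library, stacked as Ccn1 (red), Ccn2 (blue) and Ccn3 to Ccn5 together (orange). OGTi replicate 1 reached 4525 TPM with 93.3% from Ccn1, and OGTi replicate 4 reached 13177 TPM.

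Ankrd1 codes for a nuclear and sarcomeric ankyrin repeat protein that is a frequent YAP reporter and lies on chromosome 19 (36089352 to 36097506, minus strand). Control replicates 1 to 4 held 586, 426, 619 and 795 CPM of Ankrd1. OGTi replicates 1 to 4 held 235, 151, 310.3 and 281 CPM. Each OGTi library was below every control library, which was so for 12% of the genes tested. Ankrd1 had a log2 fold change of -1.33 ± 0.19 (SE, 95% interval -1.74 to -0.91, edgeR adjusted p = 0.00143), and the pairs gave -1.32, -1.50, -0.995 and -1.50. Ankrd1 and Ccn1, both read as YAP reporters, thus moved in opposite directions in 4 of 4 pairs.

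Amotl2 and Ajuba both act back on the pathway. AMOTL2 is an angiomotin that holds YAP in the cytoplasm, and AJUBA is a LIM protein that binds LATS kinases and limits their activity. Amotl2 (chromosome 9, 102593836 to 102610617, plus strand) was at 313, 322, 394 and 494 CPM in control replicates 1 to 4. In OGTi replicates 1 to 4 it was at 95.1, 237, 189 and 358 CPM. OGTi replicate 1 was lowest by far and OGTi replicate 4 lay within the control range, yet Amotl2 was lower in 4 of 4 pairs. For Amotl2 the log2 fold change was -0.92 ± 0.24 (SE, 95% interval -1.46 to -0.37, edgeR adjusted p = 0.0269). It was -0.79 with an adjusted p of 0.146 without the replicate block, -0.65 with 0.0502 without replicate 1, and -0.87 with 0.105 without replicate 3.

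Ajuba (chromosome 14, 54804787 to 54815027, minus strand) was at 57.1, 70.9, 54.1 and 28.6 CPM in control replicates 1 to 4. In OGTi replicates 1 to 4 it was at 45.7, 66.2, 28.8 and 24.5 CPM. The values were lower in OGTi in 4 of 4 pairs, but the groups overlapped, with replicate 4 lowest in both. The log2 fold change was -0.39 ± 0.22 (SE, 95% interval -0.88 to 0.10, edgeR adjusted p = 0.260).

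Axl and Crim1 code for membrane proteins. AXL is a receptor tyrosine kinase of the TAM family that is activated by GAS6, and CRIM1 is a transmembrane protein with cysteine-rich repeats that binds bone morphogenetic proteins. Axl (chromosome 7, 25456535 to 25488329, minus strand) was at 954, 1114, 1248 and 1778 CPM in control replicates 1 to 4. In OGTi replicates 1 to 4 it was at 305, 1021, 896 and 887 CPM. OGTi replicates 2, 3 and 4 lay close together near the lower controls, and OGTi replicate 1 was far below them. Its log2 fold change was -0.81 ± 0.25 (SE, 95% interval -1.36 to -0.26, edgeR adjusted p = 0.0465), lower in 4 of 4 pairs. This call passed in 5 of 13 alternatives, with adjusted p from 0.00320 to 0.186, and was lost without replicate 1 (-0.53, adjusted p = 0.102), replicate 3 (-0.92, adjusted p = 0.0746) or replicate 4 (-0.73, adjusted p = 0.170), and without the replicate block (-0.71, adjusted p = 0.186).

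Crim1 (chromosome 17, 78507601 to 78684021, plus strand) was at 57.2, 42.7, 61.8 and 62.2 CPM in control replicates 1 to 4. In OGTi replicates 1 to 4 it was at 81.2, 52.0, 32.0 and 54.97 CPM. Both the lowest and the highest library were OGTi libraries, and 2 pairs went up and 2 down. The log2 fold change was -0.08 ± 0.26 (SE, 95% interval -0.67 to 0.51, edgeR adjusted p = 0.877). GENCODE places a same-strand microRNA gene, Gm55541, within Crim1.

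OGTi replicate 1 was the lowest OGTi library for Ccn2, Ccn5, Amotl2 and Axl, whereas it was the highest for Ccn4 and Crim1. Per length, the order of mean levels in control was Ccn1 (2324 TPM), Ccn2 (1639), Ankrd1 (688), Axl (527), Amotl2 (162), Ccn4 (38.3), Ajuba (27.9), Ccn5 (26.3), Crim1 (18.5) and Ccn3 (0.365). Of the neighbours in this order, Axl and Amotl2, Amotl2 and Ccn4, and Crim1 and Ccn3 did not overlap over the 4 libraries, and the other neighbours did. In OGTi the order of mean levels was Ccn1 (5176 TPM), Ccn2 (2423), Axl (266), Ankrd1 (219), Amotl2 (77.1), Ccn4 (22.7), Ajuba (17.9), Crim1 (14.3), Ccn5 (11.4) and Ccn3 (0.273). There the neighbours that did not overlap were Ankrd1 and Amotl2, Amotl2 and Ccn4, and Ccn5 and Ccn3. Ankrd1 and Axl changed places in the order, and so did Ccn5 and Crim1, in each case with overlapping ranges.

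The genes around this group were read from lists of names, also chosen with earlier results of these data known. Of 16 further YAP/TAZ targets, taken from a published pan-cancer signature without the genes above, 9 fell and 0 rose, beside 10.2% lower and 8.13% higher over all genes, with a median log2 fold change of -0.87 (0.01 over all genes). Without replicate 3 or without replicate 4, 5 were called lower. For the higher direction, 1 gene (Gadd45a) had an unadjusted p under 0.05 in edgeR, DESeq2 called 1 and limma called 0. F3, the tissue factor that starts coagulation, was at 1207, 845, 1267 and 1141 CPM in control replicates 1 to 4. It was at 216, 177, 270 and 215 CPM in OGTi replicates 1 to 4. The groups were far apart (log2 fold change -2.34 ± 0.18, SE, edgeR adjusted p = 0.000186). Nt5e, the ectonucleotidase CD73 that makes adenosine and a marker of fibroblasts, was at 88.9, 87.4, 120 and 134 CPM in control replicates 1 to 4. It was at 4.77, 51.6, 32.6 and 20.5 CPM in OGTi replicates 1 to 4, lowest in replicate 1 (log2 fold change -2.37 ± 0.48, SE, edgeR adjusted p = 0.00767). Ccdc80, a secreted matrix-associated protein, changed by -0.90 ± 0.19 and Lats2, a Hippo kinase that is itself a YAP target, by -0.88 ± 0.25 on the log2 scale (SE, edgeR adjusted p = 0.00920 and 0.0339). With any 1 replicate left out, Lats2 had a log2 fold change of -1.005 to -0.60 and no longer passed (adjusted p from 0.0520 to 0.107). Nt5e was -2.21 without replicate 4 (adjusted p = 0.0517) and Ccdc80 -0.81 without the replicate block (adjusted p = 0.373).

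**Figure D4:**
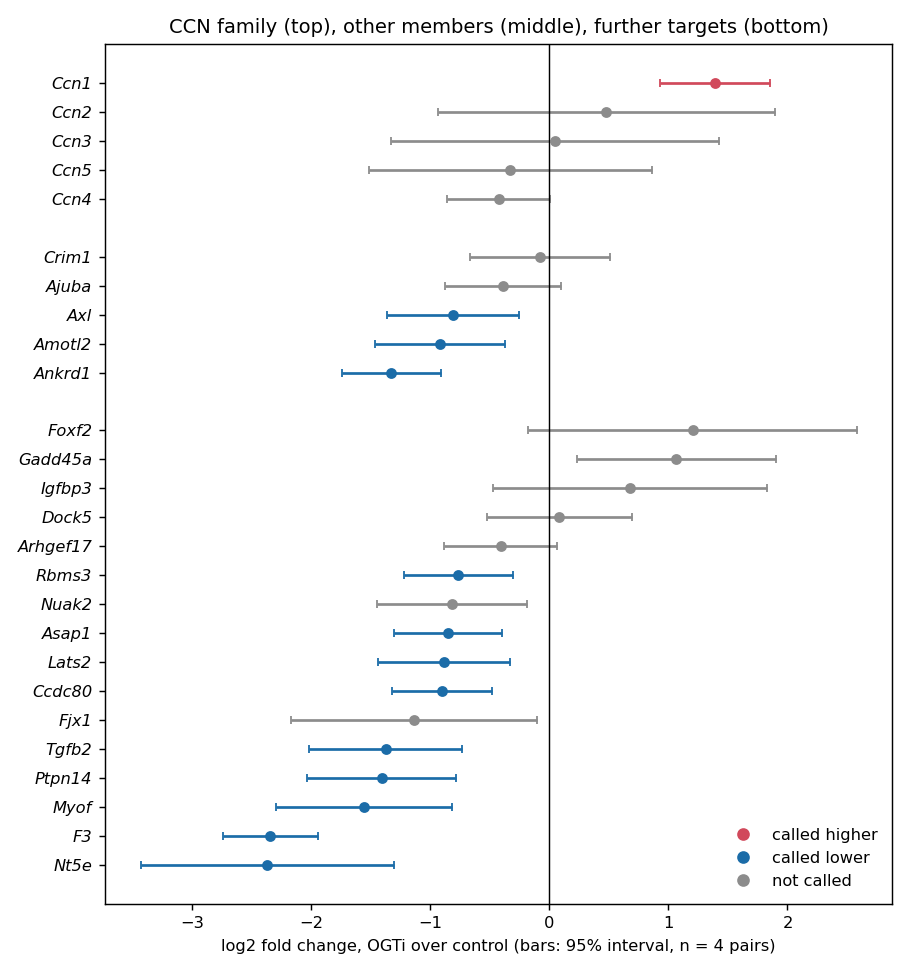
Log2 fold change of OGTi over control for the CCN genes (top), the other 5 YAP targets followed here (middle) and 16 further targets (bottom). Points are fitted values, bars are 95% intervals from 4 pairs, and colour gives the call. Ccn1 at 1.39 is the only gene of the 26 called higher in this fit, and 12 are called lower, down to -2.37 in Nt5e.

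Among 8 genes for YAP, TAZ, TEAD factors and VGLL cofactors, 2 rose and 2 fell (8.13% and 10.2% over all genes), with a median log2 fold change of -0.01 (-0.21 to 0.13 over the alternatives). Wwtr1, which codes for TAZ, was at 45.3, 55.9, 40.2 and 22.1 CPM in control replicates 1 to 4. It was at 110, 91.8, 95.1 and 119 CPM in OGTi replicates 1 to 4. All its OGTi libraries lay above all control libraries, as for 11.5% of the genes tested (log2 fold change 1.41 ± 0.28, SE, edgeR adjusted p = 0.00737). The TEAD genes went separate ways. Tead4 rose by 1.81 ± 0.41 from a mean of 3.93 to 12.3 CPM, whereas Tead2 changed by -2.15 ± 0.37 and Tead1 by -0.82 ± 0.23 (log2, SE, edgeR adjusted p = 0.0125, 0.00383 and 0.0342). Tead1 was -0.69 with upper-quartile scaling (adjusted p = 0.0658) and -0.91 to -0.63 with any 1 replicate left out (adjusted p from 0.0537 to 0.215), and then no longer passed. Vgll3, the most abundant of the list, did not pass (0.31 ± 0.23, edgeR adjusted p = 0.411). Nor did Yap1, named here outside the naming rule after its values were seen (-0.42 ± 0.22, SE, edgeR adjusted p = 0.214). All OGTi libraries of Yap1 lay below all control libraries, as for 12% of the genes tested.

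Of 10 Hippo kinases, scaffolds and upstream regulators, 1 rose and 0 fell, near the all-gene share of 8.13% higher and beside 10.2% lower, with a median log2 fold change of -0.20 that turned to 0.14 without replicate 1 and to 0.0049 with the length trend removed. The Hippo kinase gene Lats2, called lower above, was counted with the further targets and is not in this list. Mob1b, a coactivator of LATS kinases, rose from 7.96 ± 2.76 to 31.6 ± 5.31 CPM (SD, n = 4, log2 fold change 2.03 ± 0.30, SE, edgeR adjusted p = 0.00177). For the lower direction, 2 genes had an unadjusted p under 0.05 in edgeR, DESeq2 called 0 and limma called 1. The 3 genes of highest mean CPM over all 8 libraries did not pass, namely Frmd6 (0.25 ± 0.37), Stk4, which codes for the kinase MST1 (0.66 ± 0.27), and Mob1a (-0.43 ± 0.56). In Mob1a, OGTi replicate 1 stood at 12.6 CPM and the other OGTi libraries at 66.2 to 131 CPM.

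Of 11 paralogs and partners, 10 were tested, 1 fell and 0 rose (also 0 at an unadjusted p under 0.05, in DESeq2 and in limma), near the all-gene share of 10.2% lower, with a median of -0.31 (-0.0037 without replicate 1 and -0.088 with the length trend removed). The gene that fell was Ankrd23, a relative of Ankrd1, which went from 4.49 ± 1.56 to 1.40 ± 0.234 CPM (SD, n = 4, log2 fold change -1.63 ± 0.33, SE, edgeR adjusted p = 0.00752). Pros1, a TAM receptor ligand (-0.16 ± 0.30), Amotl1 (0.24 ± 0.23) and the TAM receptor Mertk (-0.45 ± 0.31) did not pass.

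Among 9 receptors of CCN proteins, 1 fell and 0 rose (also 0 at an unadjusted p under 0.05, in DESeq2 and in limma), again near the all-gene 10.2% lower, with a median of -0.15 (0.041 with the length trend removed). All 9 had a log2 fold change below 0, as had 9940 of all 19963 genes tested. For the lower direction, 3 had an unadjusted p under 0.05 in edgeR, beside 3494 of all genes tested. Lrp1, an endocytic receptor that binds CCN2, was at 234, 337, 485 and 568 CPM in control replicates 1 to 4. It was at 102, 268, 208 and 262 CPM in OGTi replicates 1 to 4, lower in each pair although the groups overlapped (log2 fold change -0.97 ± 0.21, SE, edgeR adjusted p = 0.0111). Without the replicate block it was -0.95 with an adjusted p of 0.0860, and the call was also lost on leaving out replicate 3 (adjusted p = 0.0667) or 4 (0.0549). The abundant receptors Itgb1 (0.00 ± 0.27), Sdc4 (-0.03 ± 0.23) and Itga5 (-0.73 ± 0.38) did not pass.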

How the data were processed

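Polyadenylated RNA of 8 pMF-HSC cultures was sequenced as stranded, paired-end libraries. Per the submitters' processing notes, tools were Bowtie2 2.3.5.1, RSEM 1.3.1 and DESeq2 1.36.0 on GRCm39. The expected count deposited for each gene was estimated by the authors with RSEM. The deposited TPM values, a length-scaled abundance, and the transcript lengths came from the same run. The authors' comparison table, with fold changes and p-values, was not used, and neither were its 16 columns of per-sample values.

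Expected counts were rounded and tested with edgeR 4.0.16 (R 4.3.3, quasi-likelihood, TMM scaling, total of at least 10 counts). CPM values are TMM-scaled. The replicate number was a block, since the study's methods pair treated and control samples. Same-numbered libraries correlated in their deviations from group means (0.160, 0.224, 0.105 and 0.318), and others between -0.312 and 0.208. Intervals used the fit's moderated degrees of freedom. The pipeline was tested on simulated counts. Their noise was set below that of these data (biological coefficient of variation 0.342), so that run does not give the recovery or false calls here. Alternatives were other scalings and filters, DESeq2 1.42.0, limma 3.58.1 on log2(TPM + 1), no block, a length correction and leaving out each pair.

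The genes and lists were chosen with earlier results of these data known. All 10 members were named. From each further list, the called gene with the highest positive, the 2 with the most negative fold change and the 3 of highest CPM were named. For likeness, the 3 nearest genes were named. Promoters came from RefSeq, and gene positions from GENCODE. Counts allow for strand, so the antisense genes overlapping Ccn1, Ccn2, Ccn4, Ankrd1 and Crim1 were not counted with them. Protein sequences were not used here.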

Additional observations from a re-analysis of the deposited data

Results flagged for a closer look

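In the OGTi group, Axl in replicate 1 (305 CPM) stood apart from the other 3 OGTi libraries (887 to 1021 CPM) by more than Dixon's 95% limit. It was 1 of 20 groups of values examined over the 10 genes, and chance alone gives about 1 in 20. Without that replicate the log2 fold change of Axl was -0.53 (edgeR adjusted p = 0.102).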

How the results depend on the processing

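Over 13 alternatives, Ccn1 stayed called as higher (log2 fold change 1.06 to 1.63) and Ankrd1 as lower (-1.65 to -1.20), and none of the called members, nor of the called genes named from the further YAP, TEAD, Hippo, paralog and receptor lists, changed sign. Marker genes and the genes named for likeness were not run under the alternatives. Amotl2 kept its call in 10 and Axl in 5. Amotl2 was -0.79 without the replicate block and -1.06 to -0.65 with 1 replicate left out. Axl was -0.76 with DESeq2 size factors, -0.69 with upper-quartile scaling, -0.77 with edgeR's own filter, -0.71 without the replicate block, -0.54 with the length trend removed and -1.01 to -0.53 with 1 replicate left out. Ccn4 passed in limma (-0.73). With 1 replicate left out, Ccn2 ranged from -0.22 to 1.30, Ccn3 from -0.31 to 0.61, Ccn5 from -0.85 to 0.30 and Crim1 from -0.28 to 0.21. Ccn3 was -0.15 with library totals, -0.090 in limma and -0.084 without the replicate block. Crim1 was 0.046 with upper-quartile scaling and 0.18 with the length trend removed. Of the 10 genes, 1 was lower without the replicate block and 1 to 3 with 1 replicate left out. The causes were not tested.

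Over all genes, limma called 1195 higher and 3456 lower, library totals alone 1256 and 2911, and fits with 1 replicate left out 843 to 1433 and 1062 to 1744. The all-gene median moved to 0.13 with upper-quartile scaling, to -0.19 with library totals and to 0.14 without a filter. Among further targets, 1 gene was higher with upper-quartile scaling, without a filter and in DESeq2. With 1 replicate left out, 0 to 1 were higher and 5 to 8 lower. Their median was -1.06 with library totals, -1.04 in limma and -0.64 with the length trend removed. Among YAP, TAZ and TEAD genes, 1 was lower with upper-quartile scaling and 1 with any replicate left out. Among Hippo genes, 2 were higher with upper-quartile scaling and with the length trend removed, 1 to 3 with 1 replicate left out, and 1 was lower in limma. Among paralogs, 1 was higher with the length trend removed, and 0 to 1 were higher and 1 to 2 lower with 1 replicate left out. Among CCN receptors, lower calls were 2 with upper-quartile scaling, in DESeq2 and in limma, 3 with library totals and without a filter, 0 without the replicate block and 0 to 2 with 1 replicate left out. The block changed no other count of calls by over 1.5 times. Ccdc80, named above, was -0.81 without it (adjusted p = 0.373). Some named genes that were not called in the reported fit changed sign. In limma, Vgll3 was -0.016, Frmd6 -0.10 and Amotl1 -0.080. With 1 replicate left out, Frmd6 ranged from -0.017 to 0.76, Mob1a from -1.03 to 0.31, Pros1 from -0.35 to 0.25, Itgb1 from -0.31 to 0.23 and Sdc4 from -0.21 to 0.15. Itgb1 was 0.043 with DESeq2 size factors and in DESeq2, 0.12 with upper-quartile scaling, 0.031 with edgeR's own filter, 0.024 without the replicate block and 0.26 with the length trend removed. Sdc4 was 0.021 with DESeq2 size factors and in DESeq2, 0.10 with upper-quartile scaling, 0.0086 with edgeR's own filter and 0.068 with the length trend removed. Ccn3 rests on 124 counts in all. Ccn2 differed 16.1-fold among OGTi cultures and Ccn5 20.1-fold among control cultures.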
